A study of Homo sapiens with 21 samples.

Results

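The transcripts of 10 genes of stress kinase signalling were followed after 6 h of caffeine in HepG2 cells, a long-established line from a human liver tumour: ATM, ATR, ATRIP, PRKDC, MTOR, RPTOR, RICTOR, TRRAP, CHEK1 and CHEK2. They were chosen by symbol because caffeine inhibits several of these kinases, with earlier results of these data known. Each matched 1 Ensembl ID among the 37637 features of the count table. All 10 passed the filter on low counts, which left 17468 genes to test. The study holds 7 groups of 3 libraries, at 0, 0.01, 0.1, 1, 10, 100 and 1000 µM caffeine. Cells of every group were washed and moved to fresh DMEM without serum for the exposure, so the control at 0 µM also went without serum for 6 h. The caffeine stock was made in DMEM, with no other solvent named. The series' own text names a different compound for the control group, and the sample labels, which call it caffeine at 0 µM, were followed. The replicates are described as biological. HepG2 is a single tumour-derived line, so the values describe this line in culture.

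ATM, ATR and DNA-PKcs (the product of PRKDC) are large serine/threonine kinases of the PIKK family that respond to damaged or stalled DNA. ATM acts mainly at double-strand breaks and passes the signal to the checkpoint kinase CHK2, while ATR, held at single-stranded DNA by its partner ATRIP, passes it to CHK1. mTOR belongs to the same family and works in a pair of complexes: mTORC1, with raptor (RPTOR), promotes growth and protein synthesis, and mTORC2, with rictor (RICTOR), acts on AKT and SGK kinases. TRRAP has the family's fold without kinase activity and is a scaffold of histone acetyltransferase complexes. Caffeine is a known inhibitor of ATM, ATR and mTOR activity in cells at high concentrations, and what was measured here is RNA, not kinase activity.

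The regions just upstream of the genes at the ends of the response and of MTOR are shown so that a reader can see what lies there: RICTOR had the largest rise of the 10 at 1000 µM and ATRIP the largest fall. Each is the 250 bases before a transcript start in RefSeq (GRCh38.p14), at chr5:39074400-39074649 on the minus strand for RICTOR, chr3:48446487-48446736 on the plus strand for ATRIP and chr1:11262552-11262801 on the minus strand for MTOR. Capitals mark matches, on either strand and overlaps included, to the CCAAT box (CCAAT or ATTGG), the GC box (GGGCGG or CCGCCC) and the core that the aryl hydrocarbon receptor binds (GCGTG or CACGC).
RICTOR: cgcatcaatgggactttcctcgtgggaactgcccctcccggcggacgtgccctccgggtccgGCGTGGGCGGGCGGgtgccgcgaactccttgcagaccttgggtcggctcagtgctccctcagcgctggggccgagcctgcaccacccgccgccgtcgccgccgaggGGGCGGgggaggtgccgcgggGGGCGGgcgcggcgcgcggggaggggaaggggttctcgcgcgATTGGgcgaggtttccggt
ATRIP: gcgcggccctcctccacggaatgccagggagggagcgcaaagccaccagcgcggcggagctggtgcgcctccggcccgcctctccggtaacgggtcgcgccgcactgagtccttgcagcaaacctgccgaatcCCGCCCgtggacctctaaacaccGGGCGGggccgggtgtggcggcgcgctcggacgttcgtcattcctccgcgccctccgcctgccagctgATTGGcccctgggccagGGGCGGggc
MTOR: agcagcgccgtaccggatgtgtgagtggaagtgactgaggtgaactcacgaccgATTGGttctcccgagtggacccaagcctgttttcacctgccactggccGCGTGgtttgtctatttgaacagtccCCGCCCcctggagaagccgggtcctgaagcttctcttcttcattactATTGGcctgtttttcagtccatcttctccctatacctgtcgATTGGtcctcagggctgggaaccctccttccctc
The RICTOR window held 4 GC boxes, 1 CCAAT box and 1 GCGTG core, the ATRIP window 3 GC boxes and 1 CCAAT box, and the MTOR window 3 CCAAT boxes, 1 GC box and 1 core. ATRIP has a second window, at chr3:48446876-48447125 and not shown, which held 1 CCAAT box and neither a GC box nor a core. Such matches are common: of 35116 windows of 250 bases in the same table, 42.64% held a GC box, 32.01% a CCAAT box and 32.22% a GCGTG core. A match describes letters only and is no sign of a bound factor. Windows were found for 8 of the 10 genes.

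Total counts ran from 28043623 to 40827833 per library, and mitochondrial transcripts took 4.95% to 14.2% of them. The cells carried the liver line's markers: the 9 hepatocyte-like markers summed to between 24463 and 29780 CPM in every library (CPM, the read count scaled to library size with TMM factors). These markers moved too: at 1000 µM against 0 µM, 3 of the 9 were lower by edgeR's quasi-likelihood test, APOA1 by -1.04 (adjusted p = 0.000767), AFP by -0.69 (adjusted p = 4.48e-05) and FGB by -0.33 (adjusted p = 0.00362) in log2, and APOB was higher by 0.56 (adjusted p = 0.0163). With the length and GC correction described further on, 4 were lower and none higher. The marker added was TF, at 0.05 without the correction (adjusted p = 0.739) and -0.46 with it (adjusted p = 0.0275). Its exons, merged over all annotated transcripts, come to 26.2 kb, and the part of this length in the call was not tested. Their part in the kinase results was not tested. Of 8 markers of other cell types 7 were matched, and they summed to 145 to 158 CPM at 0 µM and 98.1 to 127 CPM at 1000 µM. PTPRC, VWF, COL1A1 and COL3A1 were at or near 0 in both groups, with no group mean above 0.102 CPM. CD68, ACTA2 and PDGFRB made up the sum. ACTA2 was lower at 1000 µM (69.5 ± 3.30 to 37.9 ± 3.52 CPM) and PDGFRB higher (4.45 ± 0.31 to 8.58 ± 0.27 CPM), and their part in the results was not tested. The counts were taken on bulk RNA, in which a shift in how many cells are in some state and a shift in RNA per cell cannot be told apart.

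At 0 µM and per kilobase of exon, the 10 transcripts differed widely in level. Exon length here is merged over all annotated transcripts of a gene and can exceed that of a single transcript, so the order depends on it. PRKDC was the most abundant at 16.8 ± 0.57 CPM per kb (mean ± SD, n = 3), followed by MTOR at 12.7 ± 0.82. RPTOR at 7.86 ± 0.57, CHEK1 at 7.74 ± 0.70 and CHEK2 at 7.35 ± 0.58 lay within each other's spread. ATRIP stood at 3.84 ± 0.06 and TRRAP at 3.28 ± 0.32. ATM at 1.88 ± 0.11 and ATR at 1.78 ± 0.07 were also not separated, and RICTOR was lowest at 1.24 ± 0.13. Before division by length, ATM stood at 45.1 ± 2.59 CPM and ATR at 22.2 ± 0.84, and RICTOR was still lowest at 16.8 ± 1.75. So RNA of the DNA-PK and mTOR kinases was plentiful in these cells, while the rictor subunit of mTORC2 was the scarcest of the set, with a count 0.181 to 0.238 times that of raptor in the control libraries before any division by length.

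**Figure D1:**
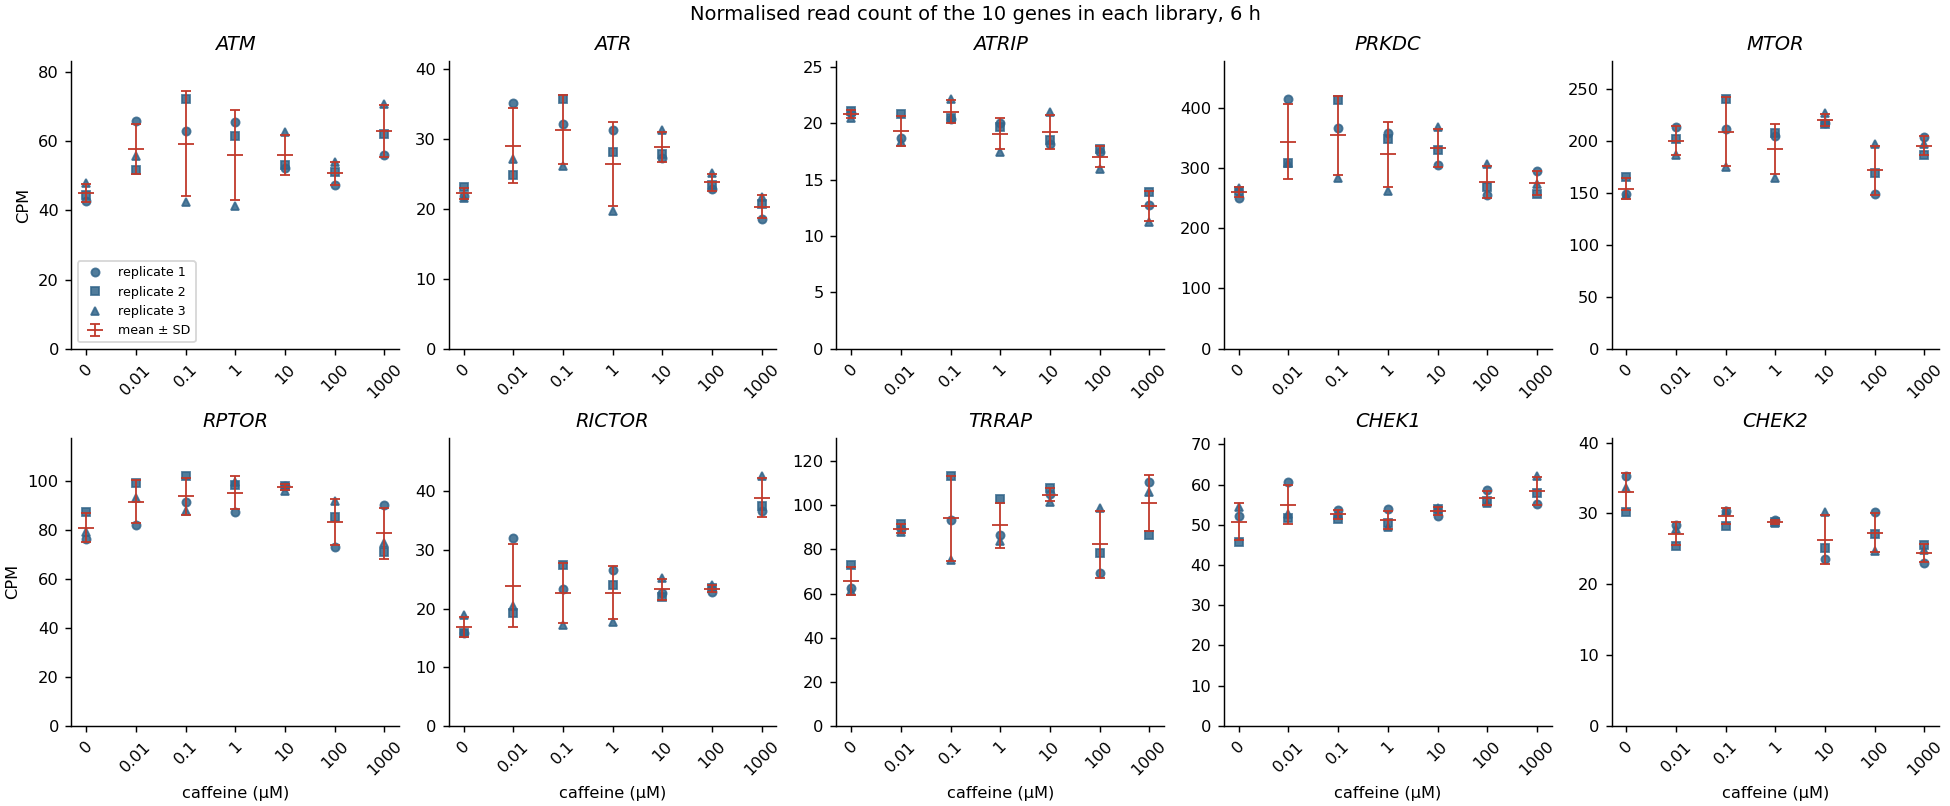
Level of each of the 10 genes (vertical axis, CPM) in each library against the caffeine dose (horizontal axis, µM, doses evenly spaced), with each panel on its own scale from 0. Marks are single libraries by replicate number, and red bars are the mean and SD of 3. RICTOR reaches 36.6 to 42.7 CPM at 1000 µM and ATRIP drops to 11.3 to 14.0 CPM.

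At 1000 µM, 6 of the 10 transcripts passed the test against 0 µM. RICTOR, TRRAP, ATM and MTOR were higher than at 0 µM, and ATRIP and CHEK2 were lower. At an adjusted p under 0.05, edgeR's quasi-likelihood test called 41.2% of all 17468 genes in this comparison, 20.6% higher and 20.6% lower, so on that background the count by itself is no result about these genes. The libraries of the compared groups did not overlap for 7 of the 10, against 53.2% of all genes. Against the trace doses, 5 of 10 passed, with 30.1% of all genes called, and RICTOR and ATRIP did not overlap them, 2 of 10 against 17.7% of all genes. TRRAP, ATM and MTOR, higher against 0 µM, did not pass against the trace doses. The median log2 fold change against 0 µM was 0.14 over the 10 genes and -0.03 over all genes tested.

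RICTOR encodes rictor, the scaffold that defines mTORC2 (ENSG00000164327.13; chr5:38937919-39074408, minus strand, GRCh38, GENCODE v29). Its level was 15.8, 15.9 and 18.8 CPM in the 3 control libraries and 36.6, 37.5 and 42.7 CPM at 1000 µM. Between them, at 0.01 to 100 µM, it ran from 17.1 to 32.1 CPM. Every library at 1000 µM lay above every other library of the study. The rise was 2.31-fold, or 1.21 ± 0.19 (SE) in log2, with an adjusted p of 8.94e-05 by edgeR's quasi-likelihood test on 3 libraries per group. Against the mean of 0.01, 0.1 and 1 µM, called the trace doses here, it was higher by 0.75 ± 0.15 (adjusted p = 0.000717), with all 3 libraries above the 9. At 100 µM the values were 22.7, 23.4 and 24.1 CPM, and the difference from the controls, 0.48 ± 0.19, missed the threshold (adjusted p = 0.123). Its exons share 229 bases with OSMR on the opposite strand. OSMR held 78015 counts in all against 17139 for RICTOR and rose by 0.88 ± 0.10 (adjusted p = 5.09e-06); whether counting used strand is not stated, so reads of this stretch cannot be assigned.

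RPTOR did not pass the test against 0 µM. It encodes raptor, which recruits substrates to mTORC1 (ENSG00000141564.15; chr17:80544819-80966371, plus strand). It measured 76.2, 87.5 and 79.3 CPM at 0 µM and 90.4, 70.9 and 74.6 CPM at 1000 µM, overlapping values that differed by -0.04 ± 0.11 in log2 (adjusted p = 0.774). Against the trace doses RPTOR was lower, by -0.25 ± 0.09 (adjusted p = 0.0399), with 2 of 3 libraries below all 9, a call that held in 4 of 12 fits with 1 library left out. The count ratio of RICTOR to RPTOR was 0.209 ± 0.028 (SD, n = 3) in the controls, 0.239 to 0.282 on average at 0.01 to 100 µM, and 0.502 ± 0.087 at 1000 µM. The lowest single ratio at 1000 µM, 0.405, was above the highest at any other dose, 0.391.

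MTOR encodes the kinase that both subunits bind (ENSG00000198793.12; chr1:11106535-11262507, minus strand). It stood at 149, 166 and 148 CPM in the controls and 204, 186 and 197 CPM at 1000 µM, with no overlap. The log2 fold change was 0.34 ± 0.12 (adjusted p = 0.028), a call that was lost without replicate 1 or 3 of either group (largest adjusted p = 0.0882). At 10 µM it read 217, 216 and 227 CPM, and at 100 µM 149, 169 and 197 CPM. The values at 10 µM were above all of those at 1000 µM, and those at 100 µM overlapped the controls. Against the trace doses 1000 µM differed by -0.04 ± 0.10 (adjusted p = 0.814).

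TRRAP is the member of the family without kinase activity (ENSG00000196367.13; chr7:98877933-99050831, plus strand). Controls measured 62.5, 72.9 and 61.2 CPM, and the libraries at 1000 µM measured 111, 86.6 and 106 CPM. The groups did not overlap, and the log2 fold change was 0.62 ± 0.14 (adjusted p = 0.00222). The 9 libraries at the trace doses, from 75.1 to 114 CPM, were all above the 3 controls. Over the 21 libraries the log2 levels of MTOR and TRRAP had a Pearson correlation of 0.906, the highest of any pair among the 10 genes, which describes libraries that share depth and exposure. SMURF1 overlaps 735 exon bases of TRRAP on the opposite strand and rose by 0.47 ± 0.09.

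ATRIP encodes the partner that ATR needs to bind coated single-stranded DNA (ENSG00000164053.21; chr3:48446710-48467645, plus strand). It was 20.9, 21.1 and 20.5 CPM in the controls, 17.4, 17.8 and 16.0 CPM at 100 µM, and 12.7, 14.0 and 11.3 CPM at 1000 µM. The values at 1000 µM lay below those of every other library. The fall was -0.72 ± 0.09 on the log2 scale (adjusted p = 1.77e-05) against 0 µM and -0.64 ± 0.08 (adjusted p = 8.34e-06) against the trace doses. At 100 µM all 3 libraries were below the controls, with -0.29 ± 0.09 (adjusted p = 0.0683). ATRIP shares 1515 exon bases with TREX1 on the same strand, and TREX1 held 260 counts over all libraries against 12740 for ATRIP. How reads in the shared bases were counted is not stated, and the part of this overlap was not tested.

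ATR itself (ENSG00000175054.15; chr3:142449235-142578826, minus strand) did not pass the test against 0 µM. Its levels were 21.9, 23.2 and 21.6 CPM in the controls and 18.6, 20.7 and 21.8 CPM at 1000 µM, which overlap and differ by -0.13 ± 0.15 in log2 (adjusted p = 0.531). At the trace doses it ran from 19.7 to 35.8 CPM, so that 1000 µM was lower than these by -0.50 ± 0.13 (adjusted p = 0.00624), although only 1 of 3 libraries lay below all 9. The ratio of ATR to ATRIP counts was 1.05 to 1.10 in the controls, 1.13 to 1.88 at 0.01 to 100 µM and 1.47 to 1.93 at 1000 µM. Its exons share 2048 bases with the pseudogene EIF2AK1P1 on the opposite strand, which held 85 counts in all. ATRIP at the trace doses ran from 17.5 to 22.2 CPM, around its control level.

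Of the checkpoint kinases, CHEK2 fell and CHEK1 did not pass the test. CHEK2 encodes CHK2, the kinase downstream of ATM (ENSG00000183765.21; chr22:28687743-28742422, minus strand). It was 35.3, 30.2 and 33.6 CPM at 0 µM and 23.0, 25.5 and 24.8 CPM at 1000 µM, with no overlap. Its log2 fold change was -0.44 ± 0.10 (adjusted p = 0.0019), and -0.22 ± 0.08 (adjusted p = 0.0451) against the trace doses, where the call held in 2 of 12 fits with 1 library left out. HSCB overlaps 301 exon bases of CHEK2 on the opposite strand and fell by 0.81 on the log2 scale. CHEK1 encodes CHK1, the kinase downstream of ATR (ENSG00000149554.12; chr11:125625136-125676255, plus strand), and read 52.3, 45.6 and 54.5 CPM at 0 µM and 55.3, 57.8 and 62.2 CPM at 1000 µM. These did not overlap, but the difference of 0.20 ± 0.08 missed the threshold (adjusted p = 0.0518). STT3A shares 80 of its exon bases on the same strand and held 199725 counts against 37423. The count ratio of CHEK1 to CHEK2 was 1.54 ± 0.08 (SD, n = 3) in the controls and 2.39 ± 0.12 at 1000 µM.

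ATM encodes the kinase at double-strand breaks (ENSG00000149311.18; chr11:108222484-108369102, plus strand). It measured 42.8, 44.6 and 47.9 CPM at 0 µM and 56.0, 62.2 and 70.9 CPM at 1000 µM, with no overlap. The log2 fold change of 0.48 ± 0.17 passed (adjusted p = 0.0339), but was lost without control replicate 1 or 2 or replicate 2 or 3 at 1000 µM (largest adjusted p = 0.139). From the trace doses, ATM at 1000 µM differed by 0.13 ± 0.14 (adjusted p = 0.529), with overlapping libraries. NPAT shares 143 exon bases with ATM on the opposite strand and rose by 0.79. PRKDC (ENSG00000253729.7, chromosome 8) read 250, 262 and 267 CPM at 0 µM and 295, 256 and 273 CPM at 1000 µM, which overlapped, at 0.08 ± 0.15 (adjusted p = 0.679). PRKDC reached 415 CPM in a library at 0.01 µM, and the difference of 1000 µM from the trace doses, -0.31 ± 0.12, missed the threshold (adjusted p = 0.0653).

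The lower doses gave few calls. At 10 µM, 3 of the 10 passed against 22.0% of all genes: TRRAP at 0.68 ± 0.14 (adjusted p = 0.00527) and MTOR at 0.51 ± 0.12 (adjusted p = 0.00778) were higher, and CHEK2 at -0.33 ± 0.10 (adjusted p = 0.0247) was lower. At 0.01, 0.1, 1 and 100 µM edgeR's test called none of the 10, against 4.95%, 0%, 0% and 6.02% of all genes. At an unadjusted p under 0.05 those comparisons held 6, 6, 5 and 4 of the 10, against 26.1%, 15.2%, 22.8% and 25.6% of all genes, and DESeq2 called 4, 3, 1 and 1 at an adjusted p under 0.05, against 14.7%, 3.87%, 10% and 13.6% of the genes it gave an adjusted p. Taken as 1 group of 9 libraries, the trace doses were above 0 µM for TRRAP (0.48 ± 0.12, adjusted p = 0.0261) and MTOR (0.38 ± 0.10, adjusted p = 0.0294), 2 of 10 against 8.80% of all genes, and TRRAP alone did not overlap the controls (6.41% of all genes). Both calls were lost when any 1 of the 3 control libraries was left out.

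Asked whether a gene differed anywhere among the 7 groups, the test passed for ATRIP, RICTOR, TRRAP, ATR, MTOR and CHEK2, 6 of 10 against 28.1% of all genes, with adjusted p from 0.000289 to 0.0383. This count was 2 when control replicate 1 or 3, or replicate 3 at 1000 µM, was left out. A slope along the dose step, the rank of the dose from 0 to 6, passed for RICTOR (0.13 ± 0.03 per step), ATRIP (-0.09 ± 0.02) and CHEK2 (-0.05 ± 0.01), 3 of 10 against 29.0% of all genes. In the 15 pairs of doses that leave out 0 µM, RICTOR and ATRIP each passed in 5, ATR in 3 and CHEK2 in 1, and each of these pairs held 1000 µM. Against 0.01, 0.1, 1, 10 and 100 µM, 1000 µM called 18.5%, 24.3%, 22.3%, 18.4% and 14.7% of all genes. Pairs among the lower doses called 0% of genes, except 100 µM against 0.01 µM (0.132%), 0.1 µM (0.258%), 1 µM (0.143%) and 10 µM (0.0515%). Against 100 µM, the nearest dose, RICTOR was higher by 0.73 ± 0.19 and ATRIP lower by -0.43 ± 0.09.

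Fold changes in this study moved with the length of a gene's exons, and most of these 10 genes are long. At 1000 µM against 0 µM the median log2 fold change ran from -0.44 over genes under 2 kb to 0.34 over the 1523 genes above 10 kb, of which 49% were called higher. RPTOR, MTOR, ATR, RICTOR, PRKDC, TRRAP and ATM exceed 10 kb, at 10.3 to 24.0 kb, while CHEK1 (6.56 kb), ATRIP (5.43 kb) and CHEK2 (4.49 kb) do not. The trend was there at the trace doses too, from -0.22 to 0.22. Library by library, the long class minus the short class was -0.10 to 0.12 in the controls and 0.63 to 0.92 at 1000 µM. Replicate 3 at 0.1 µM (0.11) and replicate 3 at 1 µM (0.25) were the lowest of the exposed libraries. These 2 libraries also held the lowest exposed values of ATM (42.6 and 41.2 CPM) and RICTOR (17.1 and 17.6 CPM), but for the other 5 genes above 10 kb the lowest exposed value was in a library at 100 or 1000 µM.

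**Figure D2:**
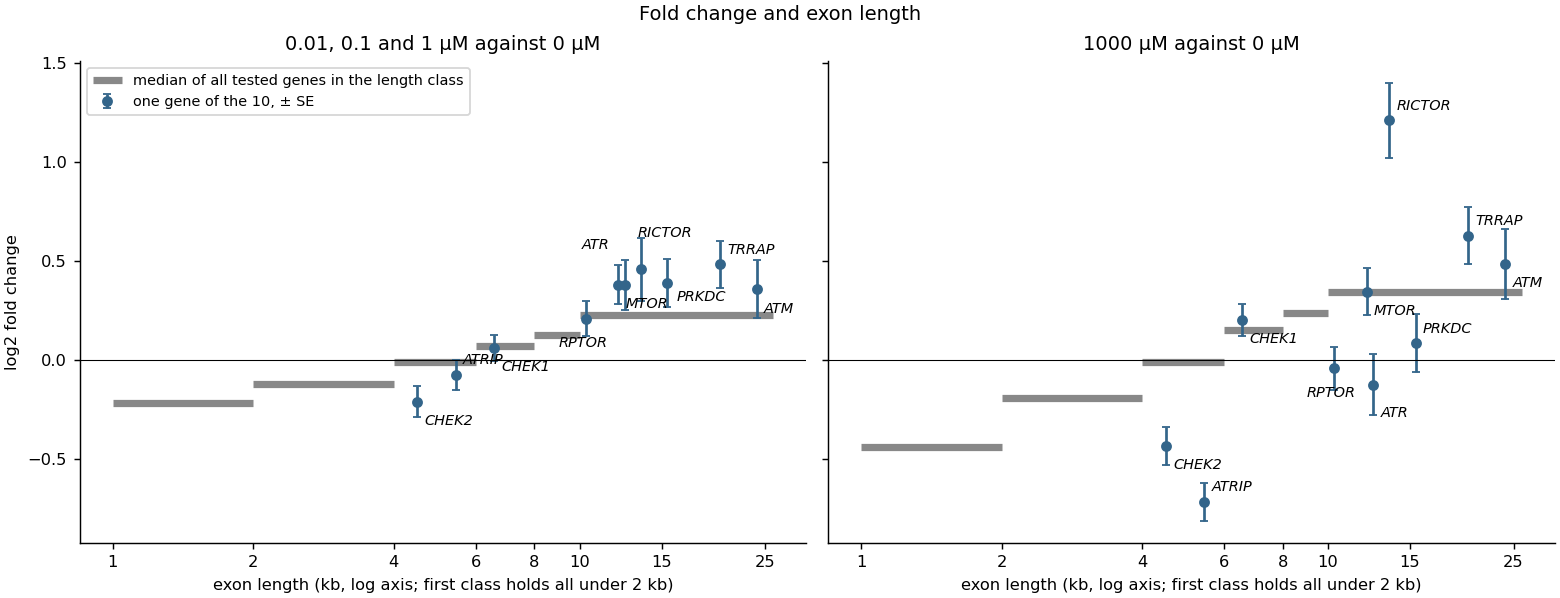
Log2 fold change (vertical axis) against exon length (horizontal axis, kb, log scale) for the 10 genes (points, ± SE), with the median of all tested genes in each length class (grey bars), for the trace doses on the left and 1000 µM on the right, both against 0 µM. The grey medians climb from -0.44 to 0.34 at 1000 µM against 0 µM. In that panel the points of RICTOR, TRRAP and ATM lie above the bar for genes over 10 kb. Those of ATR, PRKDC and RPTOR lie below it.

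With a correction for exon length and GC content fitted in every library, the set read differently. RICTOR remained higher, at 0.67 ± 0.09 (adjusted p = 2.98e-05), and TRRAP at 0.31 ± 0.09 (adjusted p = 0.00797). ATRIP (-0.63 ± 0.11, adjusted p = 0.00029) and CHEK2 (-0.46 ± 0.09, adjusted p = 6e-04) remained lower. ATR (-0.60 ± 0.09, adjusted p = 8.11e-05) and PRKDC (-0.32 ± 0.10, adjusted p = 0.0128) became lower, and MTOR (0.09 ± 0.09) and ATM (-0.09 ± 0.10) no longer passed. So 6 of 10 were called under either scale, against 39.3% of all genes with the correction, 2 higher and 4 lower in place of 4 and 2. The direction flipped for ATM, PRKDC and CHEK1. Against the trace doses the corrected fit called RICTOR higher at 0.51 and ATR (-0.71), ATRIP (-0.57), PRKDC (-0.43), CHEK2 (-0.25) and RPTOR (-0.22) lower, 6 of 10 against 32.6% of all genes. The trace doses differed from 0 µM in none of the 10 with the correction (7.29% of all genes).

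**Figure D3:**
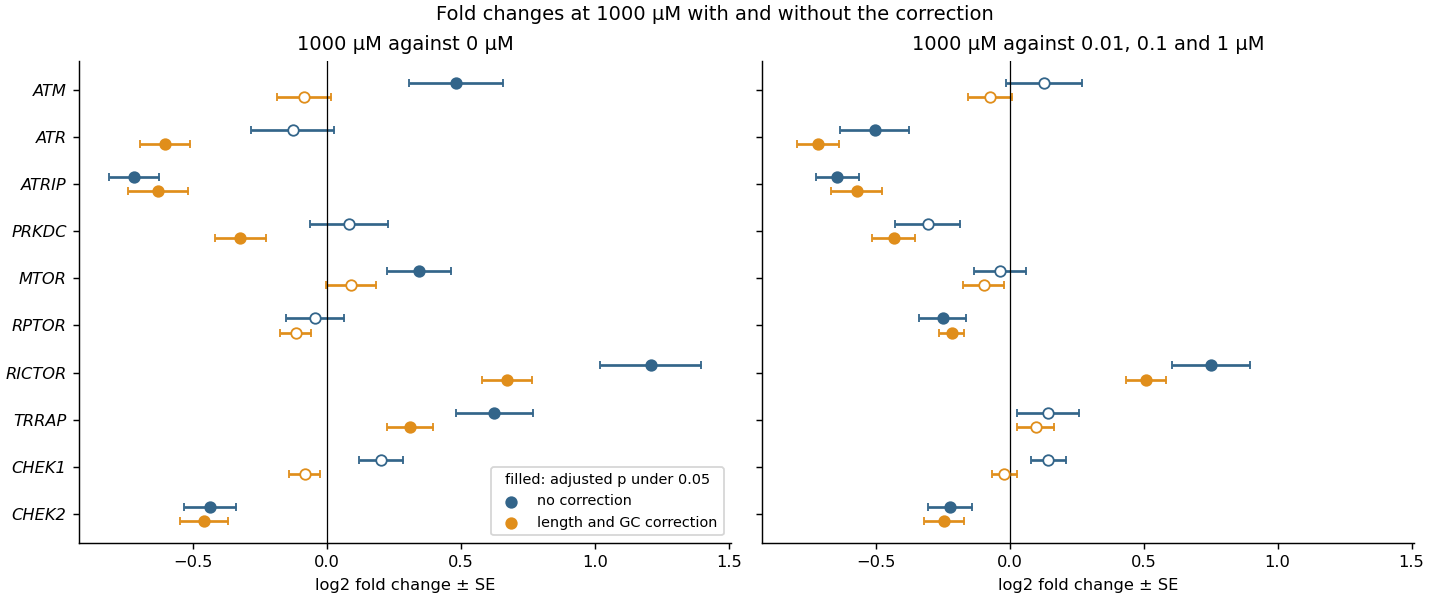
Log2 fold change ± SE (horizontal axis) of each of the 10 genes at 1000 µM, against 0 µM and against the trace doses, with and without the length and GC correction. Filled points passed at an adjusted p under 0.05. RICTOR is higher and ATRIP and CHEK2 lower in all 4 sets, while ATM, PRKDC and CHEK1 change sign against 0 µM with the correction.

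The genes around the 10 were read from lists of their partners and targets. Of 10 genes of the chaperone route that assembles PIKK proteins, 2 rose and 4 fell at 1000 µM, with a median of -0.26, where 41.2% of all genes were called, 20.6% in each direction. The counts of this and the following lists are read against that background and are no result about a list by themselves. WAC, an adaptor of this route, went from 94.7 ± 7.51 to 230 ± 35.6 CPM (log2 1.28, adjusted p = 2.05e-05), and RPAP3, a co-chaperone, rose by 0.54. TELO2, the factor that binds newly made PIKK proteins, fell from 50.3 ± 2.93 to 30.8 ± 5.91 CPM (-0.71, adjusted p = 0.00187). HSP90AB1 (-0.21) and RUVBL1 (-0.32) fell slightly, and HSP90AB1 and RPAP3 did not pass with the correction. Against the trace doses, without the correction, HSP90AB1 and RUVBL1 did not pass. SMG1, the remaining kinase of the family, which acts in RNA decay, read 107 ± 5.11 and 259 ± 19.0 CPM (1.27, adjusted p = 0.000114), but near-identical copies of this gene make its counts uncertain.

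Around ATR, 4 of 12 activators and clamp components rose and 3 fell, 7 of 12 against 41.2% of all genes. TOPBP1 (0.51) and ETAA1 (0.52), the activators of ATR, and HUS1 (0.35), part of the checkpoint clamp, rose, while RPA3 (-0.96), RPA2 (-0.26) and TIPIN (-0.32), which belong to single-strand binding and fork protection, fell. With the correction ETAA1, HUS1 and RPA2 did not pass. Without it, TOPBP1, RPA3, RPA2 and TIPIN did not pass at 1000 µM against the trace doses, while ETAA1 and HUS1 did. Around ATM, 1 of 10 break-signalling genes rose and none fell, against 41.2% of all genes called: RAD50, of the break-sensing complex, by 0.74 (adjusted p = 0.00109), with 0.34 (adjusted p = 0.0389) after correction. RAD50 was already higher than 0 µM at the trace doses, by 0.63 ± 0.13 (adjusted p = 0.0216 by edgeR's test). The difference of 1000 µM from the trace doses, 0.12 ± 0.13, missed the threshold (adjusted p = 0.521). RAD50 overlaps another gene on the same strand. Of 7 end-joining partners of DNA-PK, 2 were called, against the same 41.2%: DCLRE1C, the nuclease Artemis, rose by 0.68 (adjusted p = 6.1e-05) and PAXX, a Ku-binding factor, fell by 1.19 on the log2 scale, from 11.9 ± 1.19 to 5.21 ± 1.17 CPM (adjusted p = 4.1e-05). Both held with the correction.

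Downstream of CHK1 and CHK2, of 13 cell-cycle targets and regulators, 1 fell and none rose, against 41.2% of all genes called: PKMYT1, which holds CDK1 inactive, from 38.4 ± 2.18 to 21.2 ± 5.16 CPM (-0.86, adjusted p = 0.00149). The list's median was -0.09, and 6 of 13 were called, all lower, with the correction, near the 39.3% of all genes called there.

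Around mTORC1, 1 of 25 regulators rose and 7 fell, 8 of 25 against 41.2% of all genes, with a median of -0.27. LAMTOR2 (-1.31, adjusted p = 4.83e-05) and LAMTOR1 (-0.76, adjusted p = 0.000219), of the complex that tethers mTORC1 to lysosomes, were lower. NPRL2 (-0.40), of a complex that inhibits mTORC1 when amino acids are low, was lower too, and these held with the correction. TSC1, an inhibitor of the pathway, rose by 0.35, a value of -0.02 after correction. Of 8 substrates, 3 rose and 1 fell, near the background of 41.2%. ULK1, the autophagy kinase, went from 18.2 ± 1.35 to 47.9 ± 10.9 CPM (1.40, adjusted p = 8.06e-06; 1.51 corrected). GRB10, an adaptor that dampens insulin signalling, went from 6.10 ± 0.63 to 14.7 ± 1.85 CPM (1.27, adjusted p = 1.03e-07; 1.04 corrected), and at 100 µM it read 7.03 ± 0.20. RPS6KB1, the S6 kinase, rose by 0.61 (0.22 corrected, adjusted p = 0.00623), and EIF4EBP1 fell by 0.46 on the log2 scale but read 0.17 after correction. EIF4EBP1 also did not pass against the trace doses without the correction.

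Of 5 partners and targets of mTORC2, 2 were called, near the background of 41.2%: SGK1 rose by 0.58 (adjusted p = 0.000214) and PRR5, a subunit that goes with rictor, fell by 0.40 on the log2 scale (adjusted p = 0.00747). Neither passed with the correction at this contrast, although without the correction SGK1 was higher by 0.69 against the trace doses (adjusted p = 2.96e-06). PRR5 did not pass against the trace doses (adjusted p = 0.192). Of 14 members of TRRAP's acetyltransferase complexes, 6 rose and 3 fell, 9 of 14 against 41.2% of all genes. EPC2 (1.00), BRD8 (0.72) and EPC1 (0.60) rose and DMAP1 (-0.51), TADA3 (-0.49) and KAT2A (-0.26) fell, and EPC1 and KAT2A did not pass with the correction. TADA3 and KAT2A did not pass against the trace doses without the correction.

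**Figure D4:**
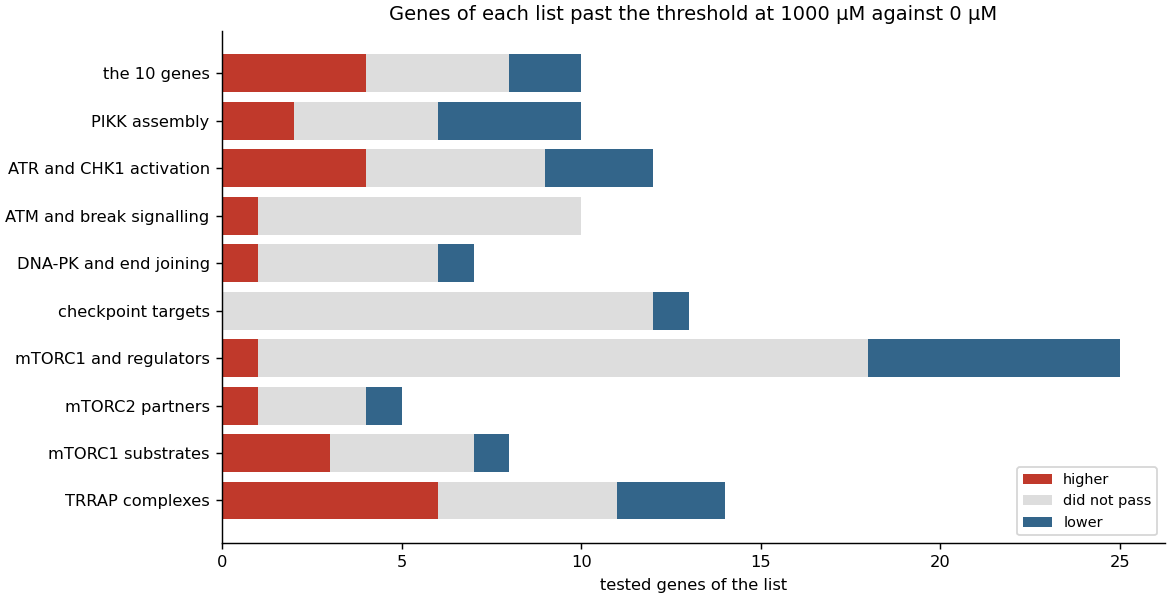
Number of tested genes in each list (horizontal axis) that were higher, lower or did not pass at 1000 µM against 0 µM. The mTORC1 regulators hold 7 lower and 1 higher of 25, and the checkpoint targets 1 lower of 13, where 41.2% of all genes were called.

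The genes most like a member over the 21 libraries were found by Pearson correlation of log2 CPM among 12444 candidates. For RICTOR they were RASA1 (0.978), ITGA1 (0.975) and MKLN1 (0.973), and for ATRIP they were DDC (0.964), GYG2 (0.964) and NECTIN4 (0.958). TRRAP was nearest to AKAP13 (0.966), FAT1 (0.962) and TET3 (0.962), and ATR to SCN1A (0.941), ATP8B1 (0.932) and PDE11A (0.927). Libraries share dose, depth and the length trend, so these values describe likeness only.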

How the data were processed

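The deposited table holds whole-number read counts per gene without normalization, judged from the values. HISAT2, DESeq2 and GRCh38 are named in the submitters' processing notes with no role or version. The counting tool, annotation and strand setting are not given in the sources used here. Poly(A)-selected RNA was sequenced, per the labels' protocols. Of the table's columns, 21 matched these samples, and 21 other per-sample columns were not used.

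The counts were tested with edgeR 4.0.16 (R 4.3.3): quasi-likelihood fit over 21 libraries and 7 groups, TMM scaling, expression filter at a minimum count of 10, 17468 genes, 14 residual degrees of freedom, Benjamini-Hochberg adjustment over all genes, threshold 0.05. Fold changes carry a standard error (SE). Libraries of a group differed by more than counting noise (chi-square per degree of freedom from 5.46 to 207) and all were counted as separate samples. The length and GC correction used per-library splines (5 degrees of freedom) on GENCODE v29 exon length and GC, known for 89.8% of tested genes. Exon length was merged over all annotated transcripts of a gene. Alternatives were DESeq2 1.42.0, no filter, fits on the compared groups only, a replicate block, the mitochondrial share as covariate, and each library left out. Scripts were tested on simulated data. Members and gene lists were chosen with earlier results of these data known. Named list genes were up to 3 higher and 3 lower per list with the smallest p at 1000 µM, and likeness was searched for the 4 members with the smallest p among groups.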

Additional observations from a re-analysis of the deposited data

How the results depend on the processing

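RICTOR, ATRIP, TRRAP and CHEK2 passed at 1000 µM against 0 µM in each of the 6 fits with 1 library left out and with the length and GC correction. With that correction ATM read -0.085, PRKDC -0.32 and CHEK1 -0.082, of the opposite sign. RPTOR ran from -0.13 to 0.047 with 1 library left out, above 0 without replicate 2 of either group. At 1000 µM against 0 µM, DESeq2 and the mitochondrial covariate each called 1 gene that the main fit did not, and lost none. Over the fits with 1 library left out, a gene gained a call 2 times and lost it 8 times there. The number of the 10 genes called changed as follows. In parentheses is the share of all genes called by the same fit. DESeq2 called 4 genes at the lowest dose (14.7%), 3 genes at 0.1 µM (3.87%), 1 gene each at 1 and 100 µM (10% and 13.6%), 5 along the dose step (31.3%) and 5 at the trace doses (17.4%). The fit on only the groups compared called 8 at 10 µM (32.7%), 2 at 100 µM (24.7%), 3 at 1000 µM against the trace doses (21.1%) and 0 at the trace doses against 0 µM (0%). No filter gave 3 at 1000 µM against the trace doses (12.9%), and the replicate block also gave 3 (28.2%). The length and GC correction gave 6 along the dose step (30.7%) and 0 at the trace doses (7.29%), and the mitochondrial share as covariate gave 4 there (12.6%). Leaving out each library in turn gave 0 to 0 at 0.01, 1 and 100 µM, 0 to 5 at 0.1 µM (0% to 4.85%; 5 without replicate 3 there), 2 to 3 at 10 µM (7.07% to 20.8%), 4 to 6 at 1000 µM (28.8% to 38.6%), 2 to 6 among the groups (17.2% to 35%), 3 to 5 along the dose step (19.5% to 35.8%), 3 to 6 at 1000 µM against the trace doses (17.2% to 36%) and 0 to 6 at the trace doses against 0 µM (0% to 15.1%). The cause of these changes was not tested. Replicate numbers did not pair the libraries: over 63 same-numbered pairs the correlation of deviations had a median of 0.02, 11 were over 0.1, and 5 of 21 libraries correlated best with their own number. Depth limits little here, since every member held at least 12740 counts over the 21 libraries; 3 libraries a group limit the precision.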
